A study of Mus musculus with 8 samples.

Results

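Basal-like cells of mouse mammary tumor organoids on the G2/M side of a transcript ratio, called cells in G2 or M here, were selected from 3 single-cell libraries. The rule used 16 transcripts and chose 286 of 1100 cells, and the phase itself was not measured. A cell was called basal-like when the log2 ratio of its Krt8 and Krt18 counts to its Krt5 and Krt14 counts was not in the top 25% of all cells. This cut lay at 0.865, so a basal-like cell could hold more Krt8 and Krt18 counts than Krt5 and Krt14 counts. It was called cycling when 6 S-phase genes (Mcm3, Mcm5, Mcm6, Pcna, Rrm2 and Tyms) and 6 G2/M genes (Top2a, Cdk1, Ccnb1, Ube2c, Cenpf and Birc5) together lay in the upper part of all cells, at or above 12.504 UMIs per 10000. A UMI is a molecular tag that marks 1 captured transcript. Cycling basal-like cells numbered 571, and those at or above the median of the log2 ratio of the G2/M genes to the S genes were taken as cells in G2 or M. The other 285 are called S cells here, and the 254 basal-like cells below the cycling cut are called resting cells.

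The organoids came from tumors of MMTV-PyMT; MMTV-Cre; Ecadherin-mCFP mice, in which the mammary tumor virus promoter drives the polyoma middle T oncogene in mammary epithelium. SOX4, a transcription factor of the SRY-box family, was disrupted with CRISPR/Cas9, and control and SOX4KO organoids share the tumor background. All organoids were grown for 4 days after being split to single cells, in medium with the growth factor FGF2. The study asked what loss of SOX4 changes in these tumor cells. Single cells were sequenced from 1 control line (GR17) and 2 SOX4KO lines (GR18 and GR19), and bulk RNA from 2 control lines (WT1 and WT3) and 3 SOX4KO lines (H7, M4 and H4). A line is a clone, the labels do not tie the single-cell lines to the bulk lines, and each single-cell line is 1 library. In the single-cell data the genotype, the line and the library therefore cannot be told apart, and differences between those libraries are given as sizes with counting intervals, with a test of the library sums run only as an alternative.

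A dividing cell copies its DNA in S phase, checks and prepares it in G2, and then separates the copies in mitosis. Cyclin B with the kinase CDK1 starts mitosis, Aurora A and PLK1 drive the maturation of the spindle poles, and the anaphase promoting complex ends mitosis by marking cyclin B and securin for destruction. Transcripts of cyclin B, CDK1, Aurora A, PLK1 and many other mitotic proteins are low in G1. They rise from late S phase and peak in G2 and M. Their promoters are known for a pair of elements close to the start site, the CHR (TTTGAA), which is bound by the DREAM and MMB complexes, and the CCAAT box, which is bound by NF-Y. In mammary tumors the abundance of these transcripts is widely used as a measure of proliferation.

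The promoters of some of these genes are shown because both elements were more frequent among the genes highest in these cells than among all genes, although not every one of those genes held them. The first 4 genes (Aspm, Hmmr, Cdc20 and Prr11) were high in the G2 or M cells and the last (Cdc6) was high in S cells. Sequences are from RefSeq on build GRCm38.p6 and run 5′ to 3′ from 130 bases before the start site to 20 bases after it. Capitals mark TTTGAA and CCAAT, or TTCAAA and ATTGG where the element is on the other strand. The stretches are Aspm at chr1:139454643-139454792 on the + strand, Hmmr at chr11:40733418-40733567 on the - strand, Cdc20 at chr4:118437324-118437473 on the - strand, Prr11 at chr11:87108695-87108844 on the - strand and Cdc6 at chr11:98908021-98908170 on the + strand.
Aspm: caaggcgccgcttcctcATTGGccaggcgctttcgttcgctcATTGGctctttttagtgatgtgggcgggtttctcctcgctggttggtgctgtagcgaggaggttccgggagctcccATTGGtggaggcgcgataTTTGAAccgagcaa
Hmmr: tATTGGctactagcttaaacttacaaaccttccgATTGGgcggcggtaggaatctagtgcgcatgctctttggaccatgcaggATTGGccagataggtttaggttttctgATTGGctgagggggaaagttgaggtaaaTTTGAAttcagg
Cdc20: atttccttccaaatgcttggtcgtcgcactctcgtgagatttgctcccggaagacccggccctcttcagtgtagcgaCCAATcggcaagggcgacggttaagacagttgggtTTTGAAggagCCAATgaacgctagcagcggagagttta
Prr11: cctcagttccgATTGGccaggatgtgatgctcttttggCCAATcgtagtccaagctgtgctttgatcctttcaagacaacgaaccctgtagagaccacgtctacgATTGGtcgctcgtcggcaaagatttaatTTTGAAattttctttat
Cdc6: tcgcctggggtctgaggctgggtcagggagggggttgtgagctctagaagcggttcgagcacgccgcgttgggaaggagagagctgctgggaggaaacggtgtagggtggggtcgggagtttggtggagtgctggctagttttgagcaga

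In Aspm the TTTGAA began at base 7 after the start, in Hmmr at base 9, in Prr11 at base 4 and in Cdc20 at 18 bases before it, and the Cdc6 window held neither element. Over 300 bases (250 before and 50 after the start), TTTGAA was present on either strand in the promoters of 20.2% of 27025 genes. Of the 63 genes at least 2-fold higher in G2 or M than in S cells in all 3 libraries, 55 had a promoter in the table, and 40 of these (72.7%) held it. Of the 8 genes at least 2-fold lower, all matched and 0 held it. CCAAT was present in 41.1% of all genes, in 42 of the 55 (76.4%) and in 4 of the 8 (Dtl, Uhrf1, Mcm10 and Zfp367). CCAAT was thus not limited to the genes high in G2 or M, and Cdc6 does not stand for all genes high in S cells. Neither element contains the other. Of the markers, Aspm, Hmmr, Aurka and Plk1 held TTTGAA, in Aurka at base 33 and in Plk1 at base 31 after the start, while Cenpe held only CCAAT. Nusap1 and Sapcd2, also high in these cells, held neither. A match of letters is no evidence that a factor was bound there.

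The control library gave 132 cells in G2 or M, GR18 gave 90 and GR19 gave 64. They made up 35.8% of the 369 kept cells of GR17 (exact binomial 95% interval 30.9 to 40.9), 24.4% of 369 in GR18 (20.1 to 29.1) and 17.7% of 362 in GR19 (13.9 to 22.0). The share was highest in the control library, and its interval did not meet those of the SOX4KO libraries, while those of GR18 and GR19 overlapped. With each cell thinned to 5000 UMIs, and 8, 4 and 4 shallower cells left out, the shares were 31.9% (27.1 to 36.9), 27.4% (22.9 to 32.3) and 20.1% (16.1 to 24.6), and the intervals of GR17 and GR18 overlapped. With only the upper 33.3% of the ratio taken, the shares were 20.9% (16.8 to 25.4), 17.9% (14.1 to 22.2) and 13.3% (9.9 to 17.2), and all 3 intervals overlapped. Intervals on shares and levels cover counting error only. Over basal-like cells alone the shares were 42.4% (36.9 to 48.1), 31.1% (25.8 to 36.8) and 28.4% (22.6 to 34.8). Over cycling basal-like cells they were 51.4% (45.1 to 57.6), 50.8% (43.2 to 58.4) and 46.7% (38.1 to 55.4), with all 3 intervals overlapping. The cut for cycling was passed by 82.6% of basal-like cells of GR17 (78.0 to 86.7), against 61.2% in GR18 (55.4 to 66.9) and 60.9% in GR19 (54.2 to 67.2). Basal-like cells made up 84.3% of GR17, 78.3% of GR18 and 62.2% of GR19. When the top 25% of the keratin ratio was taken within each library, the shares of kept cells were 32.5% (27.8 to 37.6), 23.6% (19.3 to 28.2) and 22.1% (17.9 to 26.7), and the interval of GR17 overlapped that of GR18 but not that of GR19.

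**Figure D1:**
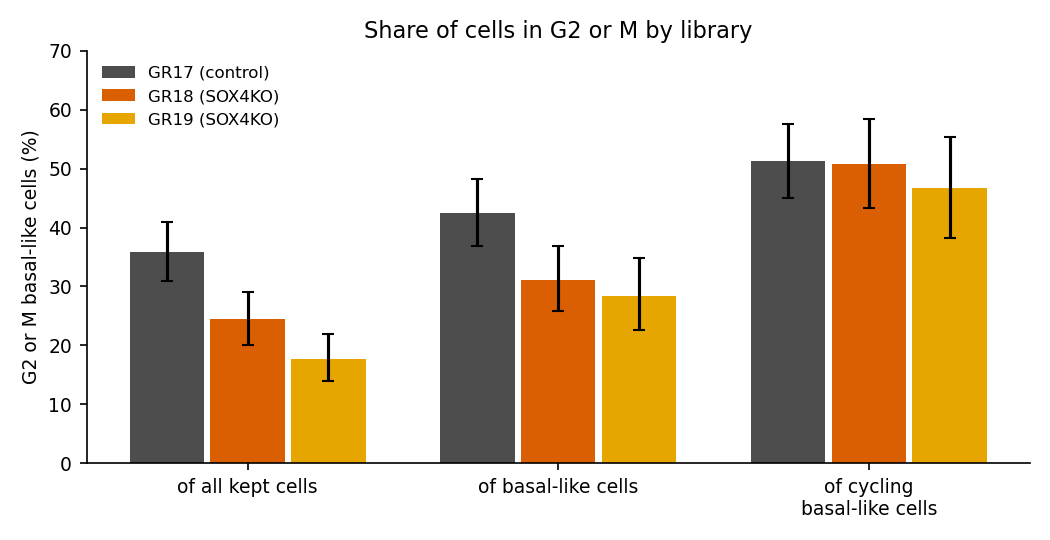
Bars give the percent of cells that were basal-like and in G2 or M in each library, over all kept cells, over basal-like cells and over cycling basal-like cells, with exact binomial 95% intervals. The control library is highest over kept cells (35.8% against 24.4% and 17.7%), and the intervals overlap over cycling basal-like cells (51.4%, 50.8% and 46.7%).

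The name G2 or M stands for a range of the ratio and not for a phase that was measured. The cut lay at a log2 ratio of -0.87, the cell just inside had 22 UMIs of the G2/M genes and 41 of the S genes, and the cell just outside had 34 and 63. Within 0.5 of the cut lay 60 of the cells in G2 or M and 71 of the S cells. The G2/M genes outnumbered the S genes in 180 of the 286 cells (62.9%), which was 54.5% of those of GR17, 67.8% of those of GR18 and 73.4% of those of GR19. The median log2 ratio was 0.13 in GR17, 0.65 in GR18 and 0.76 in GR19, so the control library had more of its cells near the S side of the cut.

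**Figure D2:**
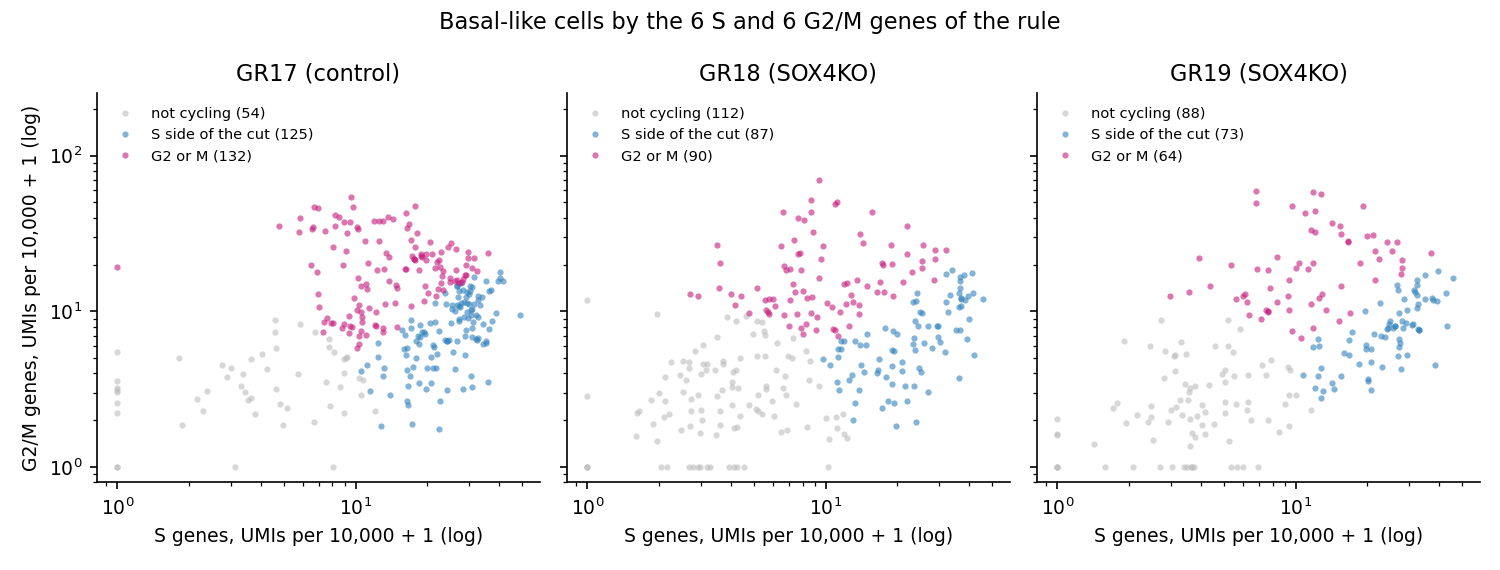
Each point is a basal-like cell, with the 6 S genes on the horizontal axis and the 6 G2/M genes on the vertical axis, both as UMIs per 10000 plus 1 on log scales, in 1 panel for each library. The 132, 90 and 64 cells in G2 or M lie above the band of S cells, and the resting cells (54, 112 and 88) lie at the lower left.

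The cells in G2 or M had a median of 19846 UMIs in GR17, 21632 in GR18 and 22732 in GR19, and summed to 2864712, 2002492 and 1465824 UMIs. Their median UMI count was 0.946, 0.987 and 0.950 times that of S cells of the same library, and 1.45, 1.37 and 1.36 times that of resting cells. Transcripts of the mitochondrial genome made up 10.9%, 11.8% and 14.8% of these UMIs, and the ribosomal RNA repeat Rn45s 5.03%, 3.47% and 5.64%. GR18 held 132026 UMIs of the ERCC spike-in, an added control RNA, against 63069 in GR17 and 66233 in GR19. Wells with over 2 times the median UMIs of their library, which could hold 2 cells, numbered 2, 4 and 1 among the cells in G2 or M. Files name wells by plate position, so the 348 well names kept in all 3 libraries do not mark shared cells.

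Markers that the rule did not count followed the label. At least 3 of Aspm, Cenpe, Hmmr, Aurka and Plk1 had a UMI in 86.7% of the cells in G2 or M, in 30.2% of the S cells and in 6.30% of the resting cells, at median depths of 21186, 22392 and 15383 UMIs. All 5 had a UMI in 142 of the 286 cells, and 3 cells had none. Cycling cells outside the basal-like class, called luminal-like here, were not split by the ratio. At least 3 of the markers had a UMI in 58.6% of them (95 of 162), at a median depth of 27506.5 UMIs. The markers were thus not limited to basal-like cells. The S and resting cells were measured on the same plates, and their shares are the nearest measure of free RNA and of cells close to the cut. These are the cells the rule was applied to, so the contrast is a description without a test.

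Aspm, which holds the spindle poles together, was at 78.2 CPM (UMIs per 1000000, over the summed cells) in the cells in G2 or M of GR17, 90.9 in GR18 and 114 in GR19. In S cells it was at 10.2, 7.99 and 12.1 CPM. Cenpe, the kinesin that moves chromosomes to the spindle equator, was at 166, 190 and 246 CPM, against 32.0, 29.1 and 28.2 in S cells. In each library both genes were higher in the cells in G2 or M than in the S cells. Hmmr, a spindle protein that binds hyaluronan and microtubules, was at 156, 212 and 267 CPM, against 39.6, 45.6 and 43.1. Aurka, the Aurora A kinase, was at 96.3, 120 and 105 CPM, against 18.5, 16.9 and 13.8. Plk1, the polo-like kinase of mitotic entry, was at 224, 265 and 231 CPM, against 47.2, 40.9 and 31.0. On the log2(CPM + 1) scale the smallest of these differences was Hmmr in GR17 (1.95) and the largest was Aspm in GR18 (3.35).

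**Figure D3:**
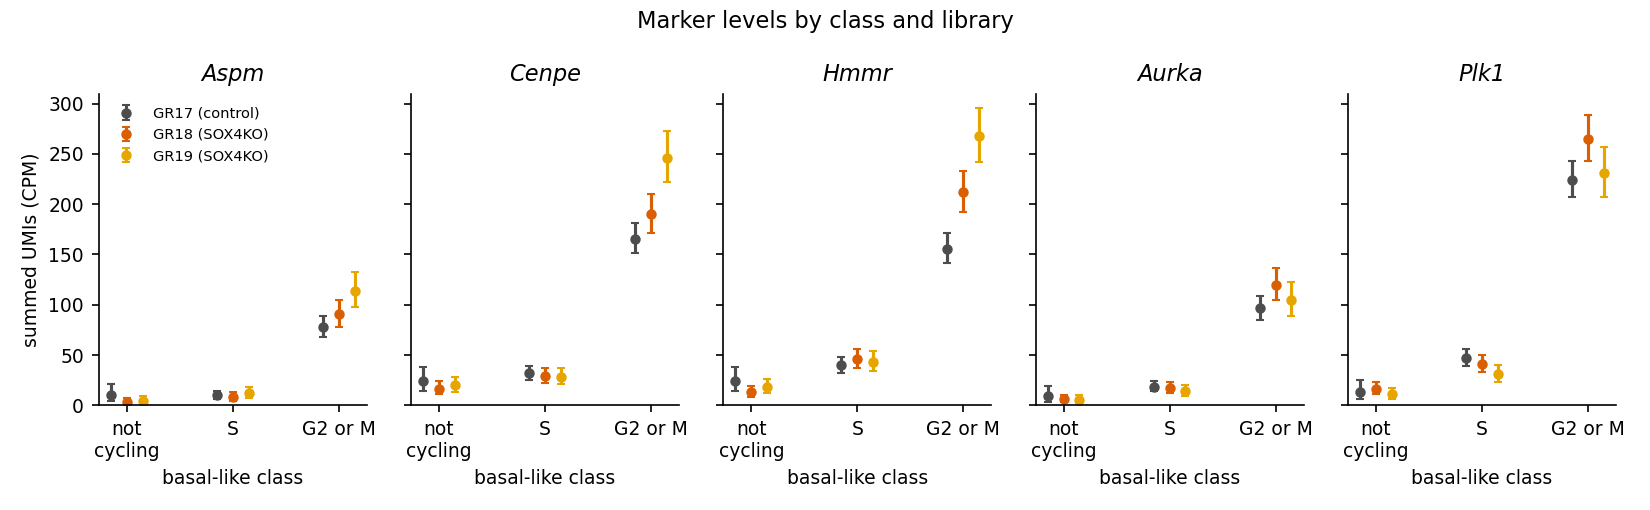
Summed levels in CPM of the 5 markers in resting, S and G2 or M basal-like cells, with 1 point for each library and exact Poisson 95% intervals. All points of the G2 or M cells lie above those of the other classes, and for Hmmr the control library (156 CPM) lies below GR18 (212) and GR19 (267).

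The same contrast across all transcripts gave 63 genes at least 2-fold higher in G2 or M than in S cells in all 3 libraries, which is 1.0% of 6287 genes with a mean of at least 20 CPM outside the 16 genes of the rule, and 8 genes at least 2-fold lower (0.127%). With GR17, GR18 or GR19 left out, 20, 10 and 13 genes were lower. The rule chose the cells on this contrast, so nothing is read from these shares. After Aspm the largest differences, ranked by the library in which each was smallest, were in Nusap1, a microtubule bundling protein of the spindle, Kif14, a kinesin of cytokinesis, Cdc20, the activator of the anaphase promoting complex, and Prr11. Nusap1 was at 67.7, 58.9 and 58.7 CPM against 9.45, 7.05 and 6.32 in S cells. Cdc20 was at 110, 121 and 105 CPM against 19.3, 18.8 and 14.4. Cenpe, Aurka, Plk1, Kif2c, which takes apart microtubules at the kinetochore, and Sapcd2 completed the 10. The 8 lower genes were Cdc6, which loads the replicative helicase, Ung, which removes uracil from DNA, Dtl, Ccne1 (cyclin E1), Uhrf1, which helps to copy DNA methylation, E2f1, Mcm10 and Zfp367. Cdc6 was at 11.5, 7.49 and 6.82 CPM in the cells in G2 or M against 63.6, 63.9 and 71.3 in S cells.

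The same contrast is given by gene list as a description. The rule split the cells on a ratio of G2/M to S genes, so mitotic lists could be higher through the choice of cells. Some lists share members, such as Cenpe and Bub1. The counts stand beside the share of all genes tested given above, and no order of the groups is read from them. Of 48 G2M phase genes tested (the list used by a common cell-cycle scoring tool, without genes of the rule), 29 were at least 2-fold higher in G2 or M, with a median log2 difference of 1.28, against -0.01 over all genes tested. Of the spindle proteins and mitotic kinesins 16 of 20 were past 2-fold (median 1.77), and of the chromosomal passenger and cytokinesis genes 9 of 10 (median 1.48). Of kinetochore and centromere genes 6 of 20 were, of mitotic entry regulators 5 of 16, of condensin and chromosome structure genes 3 of 13, of anaphase promoting complex and mitotic exit genes 3 of 16 and of spindle assembly checkpoint genes 2 of 12. None of the 9 core subunits of the anaphase promoting complex tested was past 2-fold in any library, with log2 differences from S cells between -0.26 (Anapc13 in GR19) and 0.70 (Cdc27 in GR19). Cdc27 was at 0.59, 0.08 and 0.70 on that scale and Anapc5 at 0.11, -0.06 and 0.14, against 2.46, 2.63 and 2.79 for the activator Cdc20. The CDK inhibitor Cdkn2d (p19) was the 1 gene past 2-fold of 13 CDK inhibitors, D cyclins and p53 targets, at 25.5, 43.4 and 45.7 CPM. Of 35 S phase genes, 4 were at least 2-fold lower and 0 higher (median -0.79).

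Within the cells in G2 or M the markers followed the ratio. In 4 groups of 71 or 72 cells ordered by the ratio, Aspm was at 46.7, 62.4, 92.6 and 154 CPM and Plk1 was at 124, 177, 252 and 388. Mcm2, a subunit of the replicative helicase that the rule did not use, was at 123, 85.3, 51.9 and 46.9 CPM. Hmgb2, a chromatin protein, peaked in no such order, at 238, 314, 274 and 292. The libraries filled these groups unequally, since the lowest held 33.3% of the cells of GR17, 18.9% of GR18 and 17.2% of GR19.

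Levels of mitotic transcripts inside the cells in G2 or M differed little between libraries. The rule took cells of every library past the same cuts on related genes. These levels could thus be alike through the choice of cells, and the part of that choice was not tested. The 49 G2M phase genes outside the rule summed to 7382 CPM in the control library, with an exact Poisson 95% interval from 7283 to 7482. They reached 7725 CPM in GR18 (7604 to 7848) and 8108 CPM in GR19 (7963 to 8255). This was a log2 difference from the control library of 0.07 in GR18 and 0.14 in GR19, with the control library lowest. When each cell was thinned to 5000 UMIs and the cells were chosen again, the differences were -0.077 and -0.029. Over all kept cells the same genes summed to 5174, 4137 and 4014 CPM, with the control library highest, and the log2 differences were -0.32 and -0.37. In S cells they summed to 3817, 3458 and 3376 CPM and in resting cells to 2125, 1737 and 1549. In the group with the highest ratio they summed to 10055 CPM in GR17, 10278 in GR18 and 10179 in GR19, and these intervals overlapped.

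**Figure D4:**
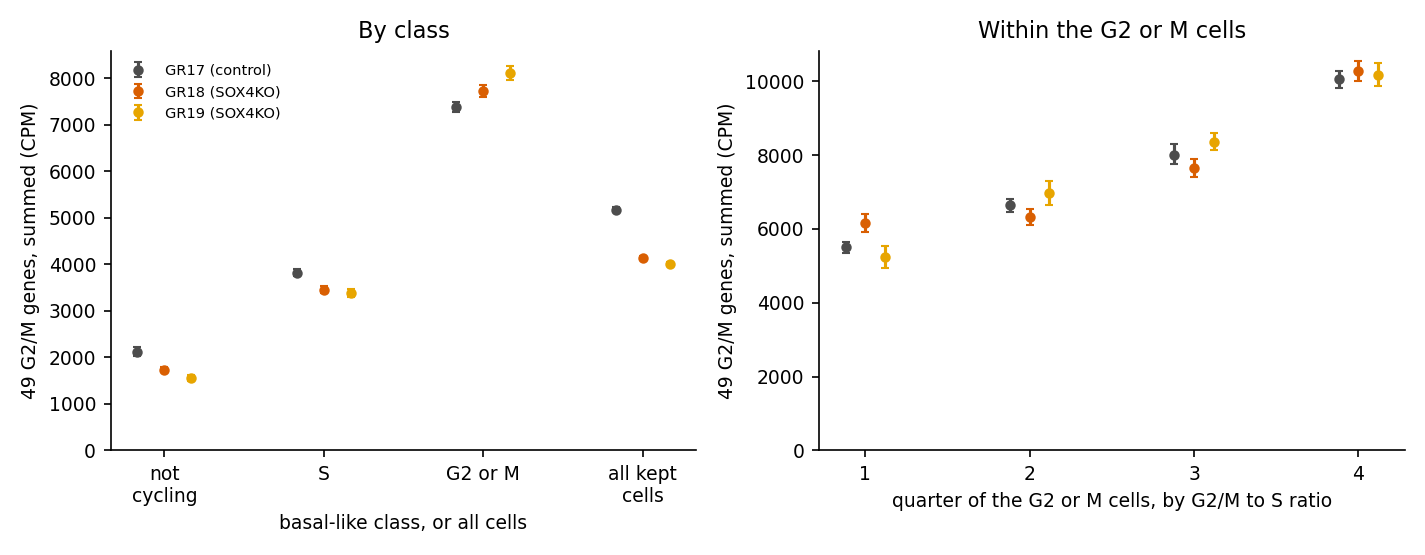
Summed level in CPM of the 49 G2M phase genes outside the rule for each library, with exact Poisson 95% intervals, by class on the left and by the 4 groups of the ratio within the G2 or M cells on the right. Over all kept cells the control library is highest (5174 CPM against 4137 and 4014), and inside the G2 or M cells it is lowest (7382 against 7725 and 8108), while in the group with the highest ratio the intervals overlap.

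Of the 48 tested genes of this list, 25 were higher in both SOX4KO libraries at any size and 13 were lower in both, against 38.5% and 36.0% of 6273 genes, and 0 were past 2-fold in both. Hmmr had the largest difference of the markers, with log2 differences of 0.44 in GR18 and 0.78 in GR19 and counting intervals that did not meet those of GR17. For Aspm (0.21 and 0.54), Cenpe (0.20 and 0.57), Aurka (0.31 and 0.12) and Plk1 (0.24 and 0.04) at least 1 interval overlapped that of GR17. Of 32 S phase genes tested, 3 were higher in both and 20 were lower in both, with a median of -0.25 against 0.01 over all genes. Mcm2 was at 92.2, 64.4 and 61.4 CPM and Chaf1b, a histone chaperone of replication, was at 82.4, 43.0 and 58.0 CPM. The lower S genes stand beside the higher ratio of the SOX4KO cells given above, and the part of one in the other was not tested.

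The groups below stand beside 38.5% of all genes tested higher in both SOX4KO libraries and 36.0% lower, and nothing particular to a group is read. By groups, 12 of 23 kinetochore and centromere genes were higher in both SOX4KO libraries and 2 lower, and 8 of 12 spindle assembly checkpoint genes were higher and 3 lower. Of 23 spindle proteins and kinesins 10 were higher in both and 6 lower, and of 10 chromosomal passenger and cytokinesis genes 6 and 1. Of 14 mitotic entry regulators 8 and 4 were, of 16 anaphase promoting complex and exit genes 1 and 4, and of 13 condensin and chromosome structure genes 3 and 4. Over all genes tested 1.58% were at least 2-fold higher in both and 0.367% lower. In none of these groups was a gene past 2-fold in both. Dlgap5, a spindle protein, came near it at 27.2 CPM in GR17, 51.4 in GR18 and 48.4 in GR19. Mybl2, the B-MYB factor of the MMB complex, was at 67.4, 49.4 and 38.2 CPM, and Foxm1, which acts with it on G2/M promoters, was at 52.0, 50.9 and 49.1.

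Sox4 itself was at 110 CPM in the control library, 66.9 in GR18 and 97.6 in GR19. These libraries read the 3′ ends of transcripts, which a cut in the coding sequence need not remove, so the counts do not check the labels. In bulk Sox4 was at 295 CPM in WT1 and 374 in WT3, against 199, 179 and 299 in H7, M4 and H4, and was not called (edgeR adjusted p = 0.277).

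Over all transcripts, 99 genes were at least 2-fold higher in both SOX4KO libraries than in the control library (1.58% of 6273 genes tested) and 23 were at least 2-fold lower (0.367%). Every one of them had counting intervals apart from those of the control library in both comparisons. These intervals cover counting error only and do not add a measure of the spread between libraries to the 2-fold rule. Both comparisons share the 1 control library. Of the 99 higher genes, 59 were also at least 2-fold higher in both SOX4KO libraries in S cells and 64 in resting cells. Of the 23 lower genes, 12 and 13 were also at least 2-fold lower in those classes. Many of these differences were thus not limited to G2 or M. With GR18 left out 98 genes were at least 2-fold lower, with GR19 left out 47 were, and 130 and 144 were higher.

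Tfap2b, the transcription factor AP-2 beta, had 0 UMIs in the control cells and 133 and 108 in GR18 and GR19 (66.4 and 73.7 CPM). Against a floor of 3 UMIs in the control library, it was at least 63.4-fold and 70.4-fold higher. Tfap2b in S cells was at 0, 61.6 and 82.8 CPM. Clca2, of the chloride channel regulator family, likewise had 0 UMIs in the control cells and was at 31.5 and 113 CPM. Against the same floor it was at least 30.0-fold and 107-fold higher. The caseins Csn1s1 and Csn3, milk proteins of the secretory epithelium, were at 5.24 and 9.43 CPM in the control cells. Csn1s1 was at 416 CPM in GR18 and 385 in GR19, and Csn3 at 170 and 327. The differences were smaller in S cells, where Csn1s1 was at 40.3, 297 and 382 CPM and Csn3 at 33.4, 125 and 436, with the control library lowest for both.

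The other 6 of the 10 genes most above the control library (ranked by the smaller of the 2 differences) are each known to respond to interferon, and are grouped here after their values were seen. Irf7, a transcription factor of that response, was at 3.14 CPM in GR17, 57.4 in GR18 and 69.6 in GR19. Isg15, a ubiquitin-like protein, was at 9.43, 106 and 149 CPM. Ifi44, with 3 UMIs in the control cells, was 23.4-fold higher in GR18 (counting interval 7.54 to 117) and 50.8-fold in GR19 (16.8 to 252). Ifi27l2a was at 1.40, 69.4 and 30.0 CPM and Oasl2 at 5.24, 59.9 and 101. Slfn8, at 5.24, 51.9 and 46.4 CPM, has near-identical relatives, and reads could be split between them. In S cells Irf7 was at 2.91, 71.9 and 51.2 CPM and in resting cells at 12.1, 143 and 88.8, so the difference was not limited to G2 or M.

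The gene most below the control library was Krt17, a keratin of basal and stressed epithelium, with 516 UMIs in GR17 (180 CPM), 8 in GR18 (3.99) and 7 in GR19 (4.78). It was at 174, 10.8 and 2.30 CPM in S cells and at 177, 2.16 and 0.648 in resting cells, so this difference too was not limited to G2 or M. Foxa1, a pioneer factor of luminal epithelium, was at 169, 44.9 and 64.8 CPM. Tuba1a, an alpha tubulin that shares long identical stretches with other tubulins, was at 189, 40.5 and 25.2 CPM. Fscn1, which bundles actin, was at 111, 39.5 and 43.0 CPM, and Prom1, a membrane protein used as a progenitor marker, at 55.9, 19.5 and 19.8. Aldh3a1, an aldehyde dehydrogenase, was at 99.1, 9.49 and 17.7 CPM, Ttyh3 at 64.2, 7.49 and 10.9, Ctxn1 at 43.3, 9.49 and 8.19 and Gpm6b at 39.4, 12.0 and 10.2. Sostdc1, a BMP antagonist, was at 85.9 CPM in GR17 and 36.0 in GR18, and had 1 UMI in GR19, so that the SOX4KO libraries also differed from each other.

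**Figure D5:**
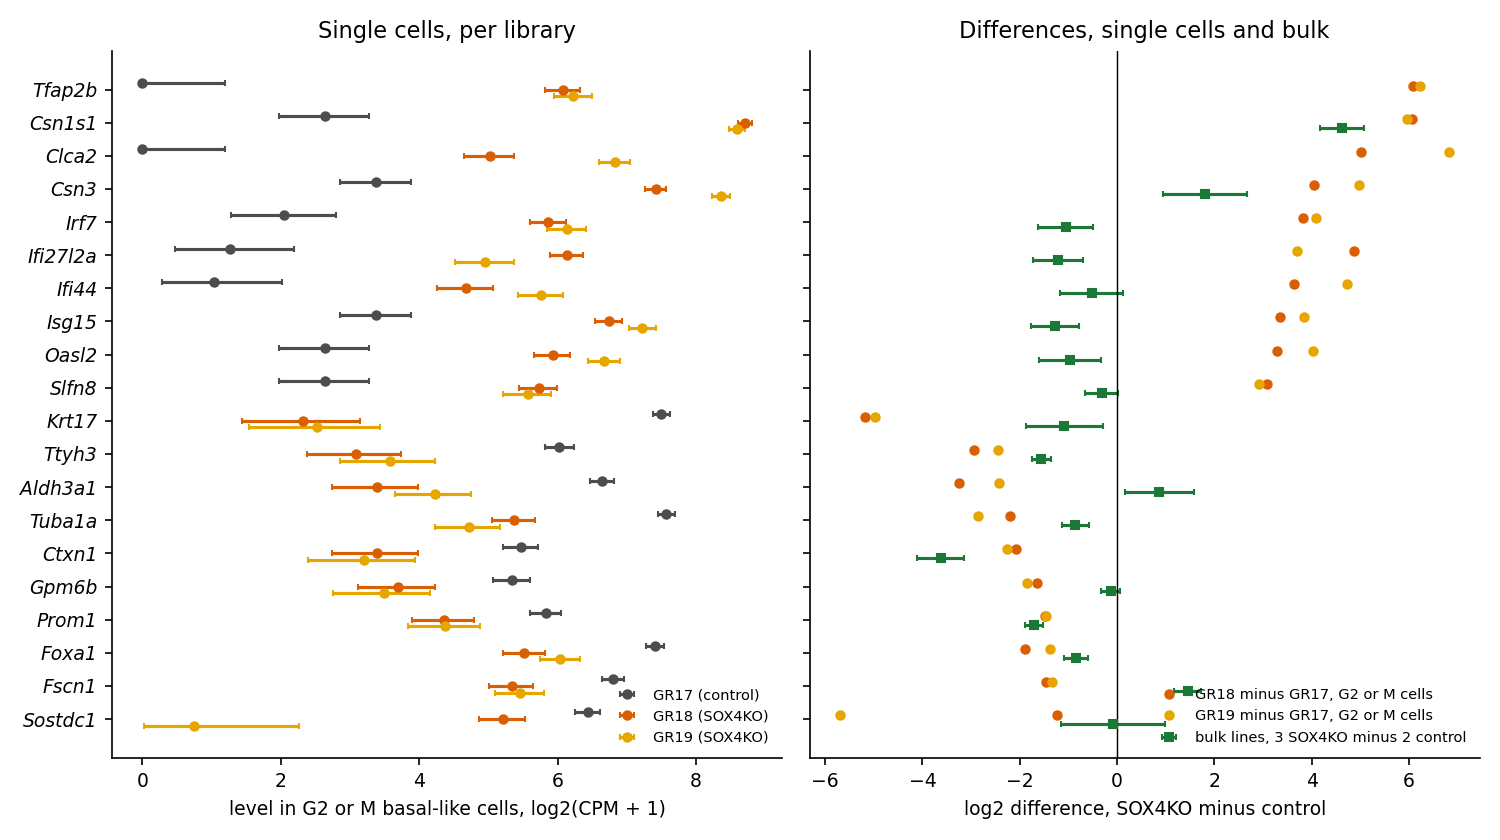
On the left, levels on the log2(CPM + 1) scale of the 10 genes most above and the 10 most below the control library in G2 or M basal-like cells, 1 point for each library with exact Poisson 95% intervals. On the right, log2 differences of GR18 and GR19 from GR17 and, as green squares with standard errors, of the 3 SOX4KO from the 2 control bulk lines. Tfap2b has no bulk square because both control lines had 0 reads, and Clca2 because it was not tested in bulk. Csn1s1, Ttyh3, Ctxn1 and Prom1 lie on the same side in both data sets, and the interferon genes lie above 0 in single cells and below it in bulk.

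The keratins that chose these cells are given as a description. Krt5 was at 2203, 1367 and 774 CPM and Krt14 at 1816, 1651 and 1491, both lower in the SOX4KO libraries, while Krt8 was at 452, 625 and 694 and Krt18 at 184, 112 and 127. This order did not hold elsewhere. In resting cells Krt5 was at 2150, 2374 and 1092 CPM and Krt14 at 2226, 3145 and 2161, both highest in GR18. In bulk the log2 differences were 1.47 for Krt5, 0.33 for Krt14, -0.25 for Krt8 and -0.51 for Krt18, and none was called. Apart from these keratins, basal identity was partial. Trp63, the transcription factor of basal epithelium, was at 59.7, 85.4 and 84.6 CPM and Snai2 at 93.2, 154 and 177. The contractile genes of myoepithelium were absent or nearly so, with Acta2 at 2, 0 and 0 UMIs, Tagln at 1, 0 and 0, Myh11 at 0, 1 and 0 and Cnn1 at 0, 0 and 1. Of 11 basal markers tested outside the rule 7 were higher in both SOX4KO libraries and 1 lower, the lower one being Krt17, against 38.5% and 36.0% of all genes tested. Of 10 luminal markers 4 were higher and 5 lower, among them Csn3 higher and Foxa1 lower. The luminal list summed to 4085 CPM in GR17, 6108 in GR18 and 5492 in GR19, of which Lcn2 (lipocalin 2) made up 1861, 4208 and 3443. Of the luminal markers Pgr, Aldh1a3 and Wap were at 0 in all 3 libraries. Of 8 mesenchymal genes tested 5 were higher in both and 3 lower, such as Sparc at 629, 1041 and 653 CPM and Vim at 753, 715 and 600. The 8 immune, endothelial and fibroblast markers found in the files summed to 10.5, 15.5 and 4.78 CPM, with Ptprc at 1, 0 and 0 UMIs and Col3a1 at 0. Stress and dissociation genes were higher in both SOX4KO libraries for 6 of 10 and lower for 2, such as Fos at 460, 632 and 524 CPM. The shares over all genes given for the basal markers apply to the luminal, mesenchymal and stress lists too, and nothing particular to a list is read from these counts. What part these lists have in the differences above was not tested.

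The bulk lines, which the rule did not use, were tested with edgeR's quasi-likelihood test across 11682 genes at an adjusted p under 0.1. In bulk RNA, fewer cells in G2 or M and less RNA per cell cannot be told apart. Plk1 was at 32.4 and 27.5 CPM in WT1 and WT3 and at 12.3, 14.8 and 8.14 in H7, M4 and H4, a log2 difference of -1.37 ± 0.28 (SE, edgeR adjusted p = 0.0418). Aurka was at 21.2 and 21.5 against 7.57, 10.8 and 7.66 CPM (-1.31 ± 0.27, edgeR adjusted p = 0.0418). Both kinases fell in every SOX4KO line below both control lines. Hmmr was at 36.8 and 38.2 against 19.8, 23.4 and 16.8 CPM (-0.92 ± 0.21, edgeR adjusted p = 0.0575). Aspm, at 21.5 and 21.1 against 12.3, 10.8 and 6.23 CPM, just missed the threshold (-1.13 ± 0.31, edgeR adjusted p = 0.1001). Cenpe, at 29.8 and 31.9 against 20.6, 20.2 and 11.3 CPM, was not called (-0.84 ± 0.28, edgeR adjusted p = 0.161). With WT1 or WT3 left out Plk1, Aurka and Hmmr were not called, at edgeR adjusted p from 0.238 to 0.462. Hmmr was also not called without H7 or H4 (edgeR adjusted p = 0.103 and 0.113), and Aspm was called without H7 (edgeR adjusted p = 0.0838). For all 5 markers the SOX4KO lines lay below both control lines, as they did for 17.9% of all genes tested, and the difference was negative in bulk and positive in the cells in G2 or M. Bulk RNA holds all cells, and over all kept single cells Aspm was at 39.8, 30.0 and 30.7 CPM, Cenpe at 90.0, 71.3 and 71.0, Aurka at 52.5, 45.1 and 34.0 and Plk1 at 121, 101 and 80.4. These 4 were thus lower in both SOX4KO libraries than in GR17, while Hmmr was at 85.8, 91.5 and 91.6 CPM.

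Of 54 G2M phase genes 14 were called lower in the SOX4KO lines and 0 higher, against 2.17% and 4.10% of all genes tested. Their median log2 difference was -0.73, with 51 negative, against 0.01 over all genes. The list summed to 2656 CPM in WT1 and 2585 in WT3, against 1831, 2076 and 1712 in H7, M4 and H4, so the groups did not overlap. Those called included Kif11, the kinesin that pushes spindle poles apart (-1.20 ± 0.23), Ect2, an activator of RHOA in cytokinesis (-1.13 ± 0.24), Ndc80 of the outer kinetochore (-1.65 ± 0.37) and Mki67 (-0.85 ± 0.22). Of these, in the cells in G2 or M, Mki67 was at 353, 421 and 539 CPM and Kif11 at 95.3, 79.9 and 98.9. Of 42 S phase genes 9 were called lower and 0 higher (median -0.72). With each control line left out in turn, 0 of the 54 genes were called, and with each SOX4KO line left out 8, 27 and 6 were.

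Of the 10 genes most above the control library in the cells in G2 or M, 9 were tested in bulk, and Tfap2b and Csn1s1 were called higher. Tfap2b had 0 reads in both control lines and 36.5, 33.8 and 35.4 CPM in the SOX4KO lines, which against 3 reads in WT1 is at least 43.6-fold higher. Csn1s1 was at 1.81 and 0.996 CPM in WT1 and WT3, against 44.9, 22.7 and 34.7 (4.62 ± 0.45, edgeR adjusted p = 0.00657). The 6 interferon genes had negative bulk differences and none was called, such as Isg15 (-1.27 ± 0.48, edgeR adjusted p = 0.217), at 347 and 200 CPM against 204, 61.9 and 71.4. Of the 10 genes most below it, Ttyh3 (-1.55 ± 0.20), Ctxn1 (-3.62 ± 0.48) and Prom1 (-1.70 ± 0.19) were called lower. Fscn1 was called in the other direction, at 9.06 and 10.8 CPM in the control lines against 33.7, 27.0 and 21.3 (1.45 ± 0.28, edgeR adjusted p = 0.0353). Krt17, the gene most below, was not called, at 11.6 and 7.97 CPM against 8.09, 5.76 and 0.239 (-1.08 ± 0.78, edgeR adjusted p = 0.536). Of these 10 genes, 8 had negative and 2 had positive bulk differences. Over all 99 genes at least 2-fold higher in the cells in G2 or M, 91 were tested in bulk, 28 were called higher and 0 lower. Over all 11682 genes tested in bulk, 479 (4.10%) were called higher and 254 (2.17%) lower. Of the 23 genes at least 2-fold lower in the cells in G2 or M, 22 were tested in bulk, 5 were called lower and 1, Fscn1, higher.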

How the data were processed

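Counts were used as the authors deposited them, without normalization. They are UMIs by gene and plate well for single cells and reads by gene for bulk lines. The submitters' processing notes name STAR 2.4.2a, HTSeq, Seurat, edgeR and DESeq and the builds NCBIM37 and mm9, without their role. Wells with at least 1000 UMIs outside the spike-ins were kept, no doublet caller was run, and the UMIs of each class of cells in a library were added up and scaled to CPM. Log2 differences used CPM + 1 and genes with a mean of at least 20 CPM in the sums compared. A gene was taken as higher or lower between libraries when it was at least 2-fold apart in the same direction in both SOX4KO libraries. Intervals are exact Poisson (levels) and Clopper-Pearson (shares) at 95%, and the interval of a ratio of counts is derived from the exact binomial.

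Bulk rows that name no gene, 71.6% to 83.9% of a library's counts, were left out, which left 3050323 to 4678497 reads on genes. Bulk lines were compared with the quasi-likelihood test of edgeR 4.0.16 under R 4.3.3, after filterByExpr and TMM, with Benjamini-Hochberg adjustment. DESeq2 1.42.0 was an alternative. A bulk replicate is a clonal line, and p-values measure the spread between these lines. The steps were tested on simulated data. The genes named are the 5 markers, the 16 genes of the rule, Sox4, the 10 most above and the 10 most below in each single-cell contrast, and examples from 15 gene lists. Symbols were matched exactly or by RefSeq synonym. The members and the lists were chosen with earlier results of these data known.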

Additional observations from a re-analysis of the deposited data

Results flagged for a closer look

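For 3 markers and 3 gene lists both SOX4KO libraries lay above the control library in the cells in G2 or M and below it in the S cells. The difference between the classes was not tested. On the log2(CPM + 1) scale, as the mean of the 2 differences from the control library, Cenpe was at 0.38 in G2 or M and -0.15 in S, Aurka at 0.22 and -0.26, and Plk1 at 0.14 and -0.40. On the log2 scale of summed CPM, the G2M phase genes were at 0.10 and -0.16, the mitotic entry regulators at 0.16 and -0.17, and the spindle proteins and mitotic kinesins at 0.17 and -0.13. The value of the G2M phase genes in G2 or M depends on the choice of cells. After thinning to 5000 UMIs it was -0.077 in GR18 and -0.029 in GR19, and with only the upper 33.3% of the ratio it was -0.032 in GR18, so that the direction turned. The rule split the same cells by a ratio of other mitotic and replication genes, and the SOX4KO cells lay farther from its cut, with median log2 ratios of 0.65 and 0.76 against 0.13. The part of that split in these values was not tested.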

How the results depend on the processing

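The shares of cells in G2 or M kept the order GR17, GR18, GR19 under the 7 alternatives run. With a higher cut, the upper 33.3% of the ratio, they were 20.9%, 17.9% and 13.3%, and the share of GR19 was 22.1% with the top 25% of the keratin ratio taken within each library. Of genes at least 2-fold higher and lower in both SOX4KO libraries (99 and 23), 56 and 12 were left with a pseudocount of 10 CPM, 45 and 9 with a mean of at least 50 CPM, 347 and 249 with no filter beyond 1 UMI, and 193 and 47 after thinning to 5000 UMIs. Leaving out a SOX4KO library gave 47 to 98 lower genes. The edgeR test of the 3 library sums, in which the control library is assumed to vary like the others, called 82 and 25 genes. Genes at least 2-fold higher and lower in G2 or M than in S cells numbered 29 and 4 with a mean of at least 50 CPM, and leaving out a library gave 10 to 20 lower genes. Per spike-in UMI, the cells in G2 or M held 1.09, 0.896 and 1.04 times the UMIs of S cells. The summed G2M phase genes in the cells in G2 or M turned below the control library after thinning, at -0.077 in GR18 and -0.029 in GR19, and in GR18 at -0.032 with the higher cut. In GR19 the difference was 0.064 with the higher cut, 0.21 without mitochondrial genes and Rn45s and 0.070 with the ratio recut within each library. These alternatives for the summed genes were chosen after seeing the data. In bulk, 26 G2M phase genes were called lower with no filter beyond 1 count, 3 at an adjusted p under 0.05 and 0 to 27 with a line left out. The cause of these shifts was not tested. No paired analysis was possible because the labels give no replicate numbers shared between groups.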
